A study of Homo sapiens with 4 samples.

Results

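The human ATP-binding cassette (ABC) transporter genes were taken as the protein-coding genes whose symbols run from ABCA to ABCG followed by a number. This gave 45 genes, all of which were present among the 60279 genes of the count tables. They were followed by RNA sequencing of bulk SUM159 cells, a cell line from a triple-negative breast cancer (TNBC), in 4 libraries, 1 for each condition. The cells were left untreated or received palbociclib, indisulam or the combination. Palbociclib is an inhibitor of CDK4 and CDK6, kinases that drive cells into S phase. Indisulam glues the splicing factor RBM39 to DCAF15, a receptor of a ubiquitin ligase, and RBM39 is then degraded. The study describes longer treatments to ask about senescence and shorter ones to ask about splicing errors, and which of these questions the libraries belong to was not settled here. Treatment of the cells, per the sample labels, was with palbociclib at 0.5 µM, indisulam at 2 µM or both at these doses, over 10 days. The text on the whole series instead gives 16 h of treatment with 2 µM palbociclib, 3 µM indisulam or both, with technical duplicates, and the dose and the duration were not settled here. Whether such duplicates were pooled into each library was not stated. All cells grew in the same medium with serum, insulin and hydrocortisone, and whether the untreated cells received solvent was not stated.

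ABC transporters bind and hydrolyse ATP through a pair of nucleotide-binding domains and use the energy to move molecules across a membrane. Some carry all of their domains in a single chain, whereas ABCG2, the ABCD proteins and others are shorter and work as dimers. Several members of the ABCB, ABCC and ABCG subfamilies export drugs and their conjugates and are known for multidrug resistance in cancer. Most ABCA proteins handle lipids, most ABCD proteins import fatty acids into peroxisomes, and several short ABCB proteins sit in mitochondria. The ABCE and ABCF proteins lack a membrane domain and act on ribosomes.

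Gene totals ranged from 12555908 reads in the untreated library to 16712174 in the indisulam library. The floor of 3 reads corresponded to 0.180 to 0.239 CPM, the read count relative to the library's gene total. VIM, CD44, KRT8, KRT18, CDH2 and ZEB1 were expressed in every library, and EPCAM stayed between 0.394 and 1.12 CPM. ESR1 and PGR, the oestrogen and progesterone receptor genes, were at 1.11 CPM or below, while ERBB2 was at 110 to 143 CPM. Of 5 markers of other cell types, ALB, CD3E and CD68 had at most 2 reads, PTPRC was at 11.1 to 17.5 CPM, and PECAM1 was at 15.2, 40.9, 17.5 and 20.4 CPM in the untreated, palbociclib, indisulam and combination libraries. PECAM1 was thus called higher with palbociclib, and its part in the palbociclib ratios below was not tested. Because RNA was measured in bulk, more RNA per cell and more cells that express a gene could not be told apart.

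With 1 library per condition there was no replicate check and no p-value was computed. A log2 ratio was taken after scaling to the gene totals and adding 1 scaled count, and its 95% interval, given in brackets, covers Poisson counting error only. Calls of higher or lower needed a difference of 2-fold or more and an interval without 0. Only genes that averaged 1 CPM or more were tested, which left 14269 genes and 35 of the 45 members. ABCB1, with a mean of 1.11 CPM, lay just inside this limit and ABCA12, at 0.771 CPM, just outside. ABCB1 passed only through its level in the combination library, so it had to differ, and counts that include it are no support for a direction. As a bound on the noise between libraries, the departure of the combination from the sum of the single drugs was used. It put an upper limit, by level, on the standard deviation (SD) of a single log2 ratio of a typical gene. This limit was 0.62 at 1 to 5 CPM, 0.37 at 5 to 20 CPM, 0.26 at 20 to 100 CPM and 0.28 above that. Single genes with few reads, such as ABCB1, can exceed it through counting error.

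Among the 35 tested members, 3 were called higher and 1 lower with palbociclib against untreated cells, beside 5.85% and 4.89% of all tested genes (10.7% in either direction). Indisulam gave 2 higher and 5 lower members, beside 8.39% and 6.69% of tested genes (15.1% in all). With another scaling of the libraries, edgeR TMM, this split was 1 higher and 6 lower, and that of all tested genes also turned, to 7.34% higher and 7.6% lower. The combination gave 7 higher and 7 lower members against untreated cells, where 12.9% and 10.5% of tested genes were called (23.5% in all). With TMM these were 6 higher and 8 lower members, beside 11.3% and 12.0% of tested genes. Against palbociclib alone, the combination gave 4 higher and 9 lower members, beside 9.56% and 7.38% of tested genes (16.9% in all), and with TMM 4 and 11, beside 8.16% and 8.69%. Against indisulam alone it gave 4 higher and 3 lower members, beside 5.04% and 3.15% (8.19% in all). The median log2 ratio of tested members was 0.15, 0.09, -0.08, -0.05 and 0.11 in these 5 comparisons, and that of all tested genes was -0.02, 0.06, 0.05, 0.07 and -0.01. The family as a whole therefore had no common direction, and its calls were spread over both. At least 1 call was made for 19 members, or 54.3% of those tested, beside 33.9% of all tested genes. The other 16 tested members were called in no comparison.

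**Figure D1:**
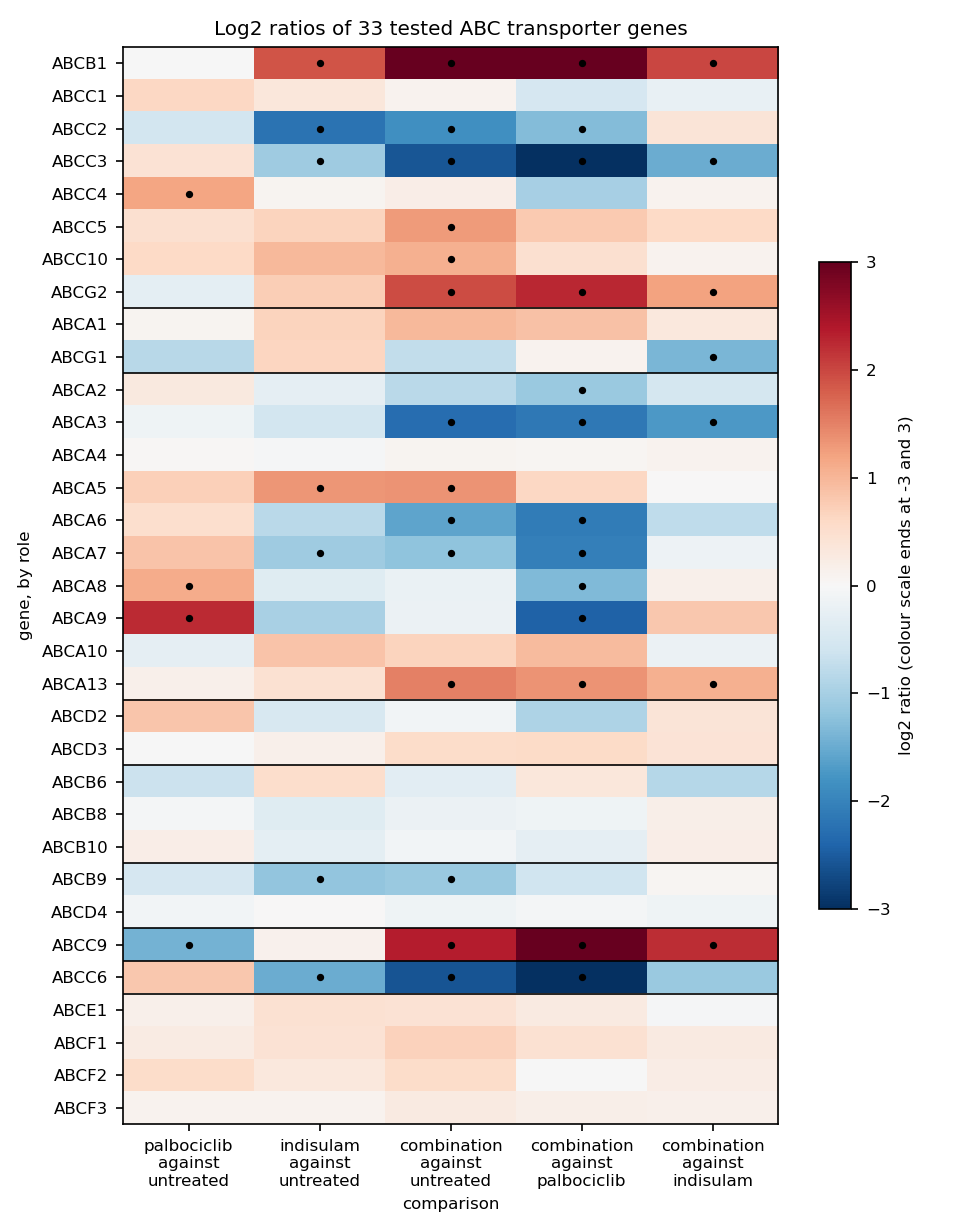
Log2 ratios of 33 of the 35 tested ABC transporter genes (rows, grouped by role with lines between the groups) in the 5 comparisons (columns). Red is higher and blue lower in the first-named condition, the colour scale ends at -3 and 3, and a black dot marks a call, of which there were 4, 7, 14, 13 and 7 from left to right.

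All the reads of the 45 members summed to 2057 CPM in untreated cells, 2495 with palbociclib, 1597 with indisulam and 1515 with the combination. The drug efflux genes were the largest group, with 1071, 1292, 601 and 484 CPM in the same order. The phospholipid, sphingolipid and bile transporters summed to 320, 488, 243 and 196 CPM. The cytosolic ABCE and ABCF genes summed to 284, 341, 367 and 401 CPM. All 3 sums were higher with palbociclib than in untreated cells, and in both libraries with indisulam the cytosolic sum was higher and the other two were lower. Per kilobase of exon, ABCC3 ranked highest of all members in the untreated (56.9 CPM per kb), palbociclib (76.5) and indisulam (27.0) libraries, and was the 9th in the combination library (9.59). There ABCF1 at 24.0 CPM per kb and ABCE1 at 22.6 CPM per kb had the highest levels.

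The promoter bases of 4 members are shown because these members had the largest ratios of combination to untreated cells among members of 5 CPM or more with a sequence in the reference. ABCC3, which would have ranked first, had no entry. The sequences are the 250 bases before the start of transcription, from RefSeq on GRCh38.p14, 5′ to 3′ on the strand of the gene, at chr12:21941427-21941676 (minus strand) for ABCC9, chr16:2340729-2340978 (minus) for ABCA3, chr4:88158640-88158889 (minus) for ABCG2 and chr10:99782390-99782639 (plus) for ABCC2. Capitals mark matches on either strand to the motifs searched.
ABCC9: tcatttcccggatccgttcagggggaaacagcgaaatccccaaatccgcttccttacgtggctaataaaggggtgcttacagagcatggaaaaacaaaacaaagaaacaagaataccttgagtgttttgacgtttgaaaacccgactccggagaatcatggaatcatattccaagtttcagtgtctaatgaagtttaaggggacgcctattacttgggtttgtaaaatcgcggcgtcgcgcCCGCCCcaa
ABCA3: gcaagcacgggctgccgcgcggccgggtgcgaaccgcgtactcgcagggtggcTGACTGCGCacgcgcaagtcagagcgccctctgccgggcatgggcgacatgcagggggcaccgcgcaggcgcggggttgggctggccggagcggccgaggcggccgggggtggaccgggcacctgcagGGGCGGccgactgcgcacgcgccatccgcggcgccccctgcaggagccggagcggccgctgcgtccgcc
ABCG2: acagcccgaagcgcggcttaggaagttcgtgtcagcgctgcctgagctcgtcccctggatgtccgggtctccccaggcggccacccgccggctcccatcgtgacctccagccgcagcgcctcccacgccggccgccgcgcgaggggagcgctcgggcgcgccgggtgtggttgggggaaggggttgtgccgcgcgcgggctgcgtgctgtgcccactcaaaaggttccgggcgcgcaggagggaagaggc
ABCC2: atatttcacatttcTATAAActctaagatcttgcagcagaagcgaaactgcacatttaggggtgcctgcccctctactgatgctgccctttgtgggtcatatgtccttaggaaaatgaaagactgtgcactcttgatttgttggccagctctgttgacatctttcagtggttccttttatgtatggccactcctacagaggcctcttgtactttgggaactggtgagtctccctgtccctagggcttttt
The ABCC9 and ABCG2 promoters belong to genes higher in the combination library and those of ABCA3 and ABCC2 to genes lower there. The ABCC2 window held a match to TATAAA, the letters of the TATA box, near its upstream end, and 45.6% G and C. ABCA3 held a match to GGGCGG, the letters of the GC box, and 1 match to the antioxidant response element core, TGACNNNGC, in a window with 79.2% G and C. The ABCC9 window held a match to GGGCGG at 46.0% G and C. ABCG2, at 73.6% G and C, held none of the motifs at the start shown, which is 1 of 5 starts listed for this gene.

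Promoter entries were found for 35 of the 45 members. GGGCGG lay in 51.4% of these and in 42.6% of all 35116 promoters of the same length, and TATAAA in 14.3% and 10.7%. TGACNNNGC lay in 17.1% and 10.9%, the E-box CACGTG in 14.3% and 6.34%, and CCAAT in 22.9% and 32.0%. The AP-1 site TGACTCA and the liver X receptor (LXR) type repeat, AGGTCA and again AGGTCA with NNNN between, lay in 0 of the 35 member promoters, and in 4.20% and 0.0142% of all promoters. None of the 7 motifs was searched beyond this window. Median G and C content was 62.4% for members and 58.0% for all promoters, with members between 31.2% and 85.6%. Each member entered these shares and the median with only the start chosen for it. The set of all promoters instead held several starts of some genes, such as ABCG2. Whether the differences between members and all promoters come from this choice of start was not tested.

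Among the drug efflux genes, ABCC3 and ABCC2 fell in the combination library while ABCG2, ABCC5, ABCC10 and, from a near-zero level, ABCB1 rose. Of 10 members in this group, 8 were tested, and 4 were called higher and 2 lower with the combination against untreated cells, beside 12.9% and 10.5% of all tested genes. One of the 4 is ABCB1, which passed the limit only through the combination library. ABCC3 (MRP3, ENSG00000108846, chr17:50634777-50692253), which exports bile acid and drug conjugates, was at 547 CPM in untreated cells, 735 with palbociclib, 260 with indisulam and 92.2 with the combination. The palbociclib library was the highest and the combination library the lowest, below both single drugs. The log2 ratio to untreated cells was -1.07 [-1.13, -1.02] for indisulam and -2.57 [-2.65, -2.48] for the combination. Between the combination and indisulam it was -1.49 [-1.58, -1.41], which was 5.33 times the noise bound for a gene of this level.

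ABCC2 (MRP2, ENSG00000023839, chr10:99782640-99852594), a canalicular exporter of glutathione and glucuronide conjugates, was at 320, 220, 68.8 and 89.7 CPM in the untreated, palbociclib, indisulam and combination libraries. Both libraries with indisulam were low. Its log2 ratio was -2.22 [-2.31, -2.13] with indisulam and -1.84 [-1.93, -1.75] with the combination, and 0.38 [0.27, 0.50] between these libraries. ABCC3 and ABCC2 thus parted once palbociclib was added to indisulam, with ABCC3 lower and ABCC2 not.

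These shifts changed the makeup of the drug efflux reads. ABCC3 held 51.1% of them in untreated cells (Wilson 95% interval 50.2 to 51.9), 56.9% with palbociclib (56.1 to 57.6), 43.2% with indisulam (42.2 to 44.2) and 19.0% with the combination (18.1 to 19.98). The share of ABCC2 was 29.9%, 17.1%, 11.4% and 18.5%. ABCC1 (MRP1), a broad exporter of glutathione conjugates, took 9.65%, 12.3%, 21.6% and 23.1% (22.1 to 24.1) of the reads, so that it was the largest contributor in the combination library. Its own level, 103, 159.4, 130 and 112 CPM, was called in no comparison, with log2 ratios between -0.51 and 0.62. The sum over the drug efflux genes, against which this share was taken, was 1071 CPM in untreated cells and 484 CPM with the combination.

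ABCG2 (BCRP, ENSG00000118777, chr4:88090150-88231628), a dimeric exporter of many cancer drugs, was at 4.78, 3.86, 8.02 and 18.7 CPM in the untreated, palbociclib, indisulam and combination libraries. The combination library was the highest, above each single drug. The log2 ratio of the combination was 1.95 [1.55, 2.35] against untreated, 2.25 [1.82, 2.69] against palbociclib and 1.21 [0.91, 1.51] against indisulam. Neither single drug gave a call, with -0.30 [-0.84, 0.24] for palbociclib and 0.74 [0.30, 1.17] for indisulam.

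ABCB1 (MDR1 or P-glycoprotein, ENSG00000085563, chr7:87503017-87713323), the classical multidrug exporter, had 2 reads in untreated cells, 2 with palbociclib, 13 with indisulam and 48 with the combination. This is 0.159, 0.158, 0.778 and 3.34 CPM, and the first pair lay under the floor of 3 reads. The log2 ratio of the combination was 3.89 [2.18, 5.60] to untreated cells and 2.01 [1.16, 2.86] to indisulam. For indisulam alone it was 1.88 [0.06, 3.71], a call that was lost with TMM and with upper-quartile scaling (1.82 in each) and with a pseudocount of 5 (1.14), where the interval included 0. Even in the combination library its level per kilobase, 0.521 CPM, was far under the 9.59 of ABCC3.

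ABCC4 (MRP4), an exporter of cyclic nucleotides and prostaglandins, was at 44.4, 101, 47.4 and 50.8 CPM, high in the palbociclib library alone. Its log2 ratio with palbociclib was 1.19 [1.04, 1.33], and it was 0.10 [-0.04, 0.25] when palbociclib was added to indisulam. ABCC5 (MRP5), another exporter of cyclic nucleotides, was at 31.5, 44.1, 50.4 and 76.7 CPM. ABCC10 (MRP7), which exports taxanes, was at 18.2, 27.5, 36.0 and 38.5 CPM. Both rose with the combination, by log2 ratios of 1.28 [1.12, 1.45] for ABCC5 and 1.08 [0.85, 1.30] for ABCC10, and neither was called with a single drug. For ABCC10 the ratio with indisulam alone, 0.98 [0.76, 1.20], was just under the 2-fold limit. Its ratio of the combination to indisulam was 0.10. The call of ABCC10 with the combination was lost with TMM scaling, where the ratio was 0.98.

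Both remaining drug efflux genes were under the limit for testing. ABCB5, a homologue of ABCB1, had 3, 1, 4 and 27 reads in the untreated, palbociclib, indisulam and combination libraries, its highest count being in the combination library as for ABCB1. ABCC11, known for the earwax type, had 13, 5, 3 and 7 reads, with the highest count in untreated cells.

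**Figure D2:**
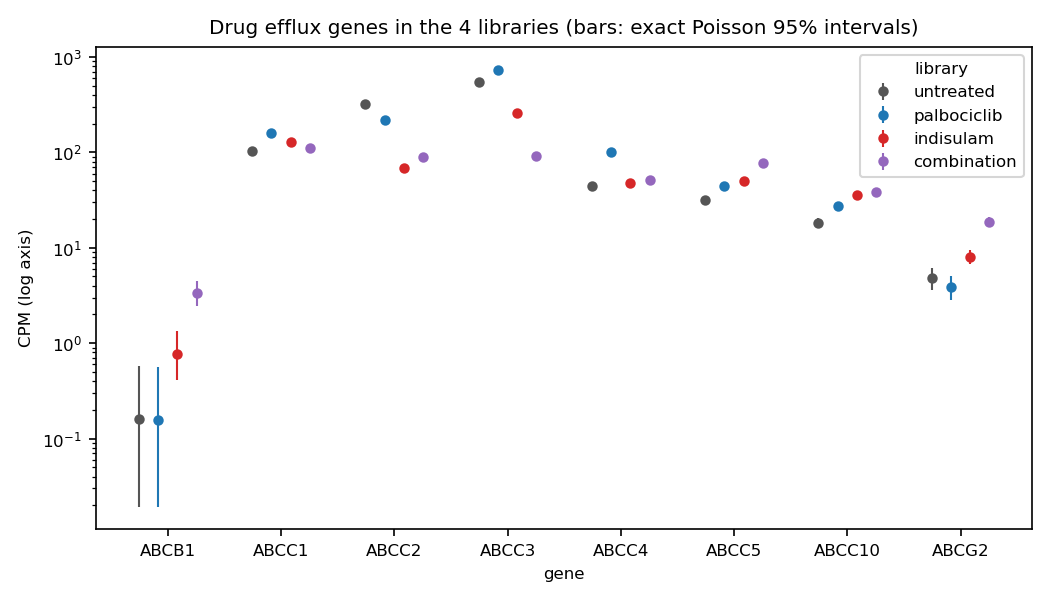
Levels of the 8 tested drug efflux genes in CPM on a log axis, with 1 point for each library and bars for exact Poisson 95% intervals, which are hidden by the points for most genes. ABCC3 falls from 547 CPM in the untreated to 92.2 CPM in the combination library, while ABCG2 (4.78 to 18.7) and ABCB1 (0.159 to 3.34) are highest in the combination library.

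For the regulators of drug efflux and the enzymes of glutathione synthesis, 10 of 12 listed genes were tested, and 1 was called higher and 2 lower with the combination against untreated cells, beside 12.9% and 10.5% of all tested genes. AHR, the aryl hydrocarbon receptor and a known inducer of ABCG2, was at 102, 177, 220 and 225 CPM in the untreated, palbociclib, indisulam and combination libraries, with a log2 ratio of 1.11 for indisulam and 1.15 for the combination. GSS, which makes glutathione, fell by 1.64 and GSR, which reduces its oxidised form, by 1.18 on the log2 scale with the combination. Palbociclib gave 0 calls in this list, beside 10.7% of all tested genes, and indisulam 1 higher and 1 lower, beside 8.39% and 6.69%. The combination gave 1 lower against palbociclib, beside 7.38%, and 0 calls against indisulam, beside 8.19%. The xenobiotic receptor genes NR1I2 and NR1I3 had at most 1 read.

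Sterol transporters differed from one another. ABCA1 (ENSG00000165029, chr9:104781006-104928155), which loads cholesterol onto apolipoprotein A-I, was at 77.0, 82.2, 122 and 151 CPM in the untreated, palbociclib, indisulam and combination libraries. Both libraries with indisulam were the highest, but no ratio was called. The log2 ratio of the combination to untreated was 0.97 [0.86, 1.08], just under the 2-fold limit. ABCG1 (ENSG00000160179, chr21:42199689-42297244), which passes cholesterol to high-density lipoprotein, was at 16.7, 9.30, 26.0 and 10.0 CPM. It was low in both libraries with palbociclib, and fell by 1.37 on the log2 scale [-1.64, -1.10] between indisulam and the combination. Its ratio for palbociclib alone, -0.84 [-1.17, -0.52], was not called. ABCG4 had 1 to 5 reads, ABCG8 at most 1, and ABCG5 had 0 reads in all 4 libraries, which allows up to 0.180 to 0.239 CPM.

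All 14 sterol efflux partners were tested. With the combination against untreated cells, 0 were higher and 5 lower, beside 12.9% and 10.5% of all tested genes. With indisulam the counts were again 0 and 5, beside 8.39% and 6.69%. SREBF1, which drives fatty acid synthesis genes, was at 432, 167, 203 and 53.4 CPM, a log2 ratio of -3.02 for the combination. LPCAT3, a phospholipid-remodelling enzyme, was at 77.2, 70.8, 24.4 and 11.8 CPM (-2.70), and APOC1, an apolipoprotein gene, at 63.1, 142, 13.5 and 10.6 CPM (-2.57). NR1H3 and APOE were the remaining 2 lower genes. Palbociclib alone gave 2 higher, APOE and APOC1, and 1 lower, SREBF1, beside 5.85% and 4.89% of all tested genes. APOE was at 216, 1055, 30.3 and 60.6 CPM, a log2 ratio of 2.29 for palbociclib. Its ratio of the combination to indisulam was 0.996 and not called. Against palbociclib the combination gave 0 higher and 5 lower, beside 9.56% and 7.38%. Against indisulam it gave 0 higher and 2 lower, beside 5.04% and 3.15%. SREBF1, LPCAT3, APOC1, NR1H3 (which encodes LXR alpha) and ABCA1 are all tied to LXR as background knowledge, and ABCA1 had the opposite sign to the others with the combination.

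The phospholipid, sphingolipid and bile group had 13 members, of which 10 were tested. With the combination 2 were called higher and 3 lower against untreated cells, beside 12.9% and 10.5% of all tested genes, and 1 higher and 6 lower against palbociclib, beside 9.56% and 7.38%. ABCA3 (ENSG00000167972, chr16:2275881-2340746), the surfactant lipid transporter of lamellar bodies, was at 16.5, 15.0, 11.2 and 3.34 CPM in the untreated, palbociclib, indisulam and combination libraries. The combination library alone was low. The log2 ratio was -2.28 [-2.73, -1.83] against untreated and -1.73 [-2.18, -1.28] against indisulam.

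ABCA7, a phospholipid transporter known from Alzheimer genetics, was at 24.4, 43.8, 11.7 and 10.5 CPM and was low in both libraries with indisulam. It was called lower with indisulam, at -1.06 [-1.32, -0.80], and with the combination, at -1.21 [-1.49, -0.93]. ABCA2, an endolysosomal lipid transporter, was at 138, 169, 114 and 78.8 CPM. It was called lower only against palbociclib, with a log2 ratio of -1.10. ABCA13, the longest ABCA gene product, was at 4.46, 4.96, 6.10 and 12.8 CPM and was high in the combination library alone, with a log2 ratio of 1.51 [1.08, 1.94] against untreated and 1.06 [0.71, 1.41] against indisulam. ABCA4, the retinal transporter, stayed between 2.63 and 2.86 CPM.

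A cluster of 5 ABCA genes, ABCA8, ABCA9, ABCA6, ABCA10 and ABCA5 in map order, lies on chr17:68867289-69327244, all on the minus strand over 460 kb. ABCA8 was at 45.2, 97.9, 35.4 and 39.3 CPM in the untreated, palbociclib, indisulam and combination libraries. ABCA9 was at 8.68, 41.5, 4.37 and 7.73 CPM, and ABCA6 at 71.3, 102, 40.9 and 23.9 CPM. These 3 neighbours had their highest level with palbociclib alone. Palbociclib called ABCA8, at 1.12 [0.97, 1.26], and ABCA9, at 2.25 [1.95, 2.55], but not ABCA6, at 0.51 [0.39, 0.64]. When palbociclib was added to indisulam, the log2 ratios were 0.15 [-0.02, 0.32] for ABCA8, 0.81 [0.39, 1.24] for ABCA9 and -0.77 [-0.96, -0.59] for ABCA6.

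At the other end of the cluster, ABCA10 was at 3.35, 2.76, 6.10 and 5.36 CPM and ABCA5, a lysosomal lipid transporter, at 3.50, 5.83, 8.86 and 8.98 CPM. Both were higher in the libraries with indisulam, in contrast to their neighbours. With palbociclib alone ABCA5 was also higher than in untreated cells, at 0.72 [0.19, 1.26], though not called. ABCA5 was called, at 1.32 [0.84, 1.80] with indisulam and 1.34 [0.85, 1.83] with the combination, and ABCA10 was not, at 0.85 [0.34, 1.37] and 0.67 [0.13, 1.21]. The combination against palbociclib gave -1.32 [-1.46, -1.17] for ABCA8, -2.41 [-2.71, -2.12] for ABCA9 and -2.09 [-2.26, -1.92] for ABCA6, and positive values for ABCA10 (0.94) and ABCA5 (0.62). The antisense gene ABCA9-AS1, which overlaps 5.92% of ABCA9 exon sequence, had 0 reads.

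**Figure D3:**
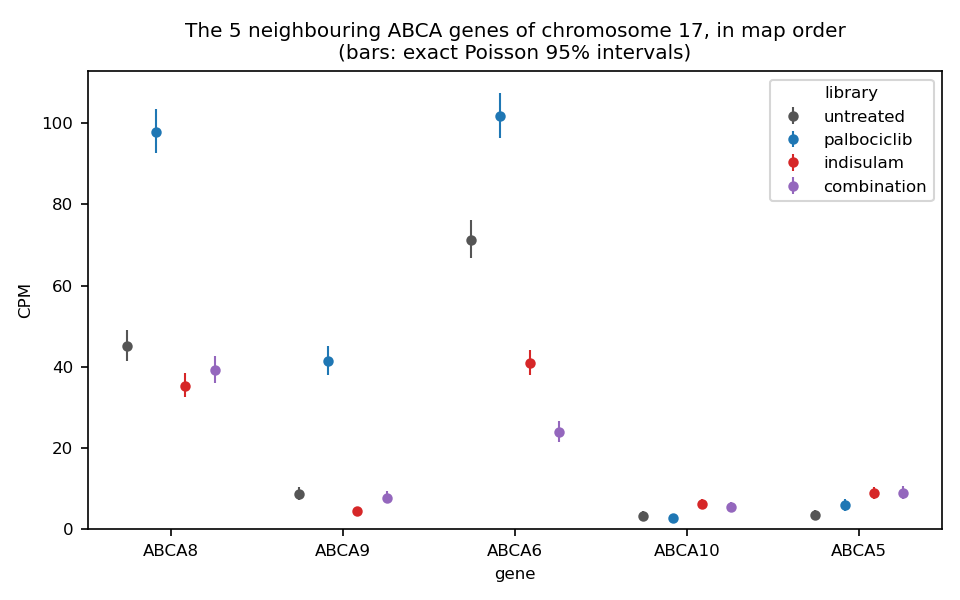
Levels in CPM of the 5 neighbouring ABCA genes of chromosome 17 in map order, with 1 point for each library and bars for exact Poisson 95% intervals. ABCA8, ABCA9 and ABCA6 are highest with palbociclib (97.9, 41.5 and 102 CPM), and ABCA10 and ABCA5 stay under 10 CPM in all 4 libraries.

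Of the members not tested in this group, ABCA12, a lipid transporter of the skin, had 11, 13, 7 and 11 reads, ABCB4, which moves phosphatidylcholine into bile, had 11, 11, 5 and 9, and ABCB11, the bile salt export pump, had 1, 4, 4 and 12.

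None of the 3 peroxisomal members was called in any comparison when scaled to gene totals, beside 33.9% of all tested genes called in at least 1. With so few members this says little about the group. ABCD2, a transporter of very-long-chain fatty acids, was at 3.11, 5.59, 2.21 and 2.92 CPM in the untreated, palbociclib, indisulam and combination libraries, highest with palbociclib. ABCD3, which imports branched-chain and dicarboxylic acids, was at 59.5, 58.6, 65.8 and 87.9 CPM and highest with the combination, where the log2 ratio was 0.56 [0.43, 0.69]. Of 22 peroxisome biogenesis and beta-oxidation genes, all tested, 0 were called higher and 4 lower with the combination against untreated cells, beside 12.9% and 10.5% of all tested genes. PEX11A and PEX11G, which act in peroxisome division, fell by 2.57 and 2.28 on the log2 scale. The counts were 0 higher and 0 lower with palbociclib (5.85% and 4.89% of all tested genes), and 0 and 4 with indisulam (8.39% and 6.69%). They were 0 and 3 for the combination against palbociclib (9.56% and 7.38%), and 1 and 0 against indisulam (5.04% and 3.15%).

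Mitochondrial members gave 0 calls among 4 when scaled to gene totals, beside 33.9% of all tested genes called in any of the 5 comparisons. A group this small says little beside that share. ABCB10, a biliverdin exporter needed for haem synthesis, stayed between 20.4 and 28.5 CPM and ABCB8 between 16.8 and 21.6 CPM. ABCB6, at 1.81 to 4.19 CPM, shares 54.6% of its exon sequence with a gene on the same strand that had no row in the count tables, and reads there may have been counted differently.

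Of the 25 genes for iron-sulfur clusters and haem, 24 were tested, and 1 was called higher and 3 lower with the combination, beside 12.9% and 10.5% of all tested genes. FDXR, which passes electrons to mitochondrial ferredoxins, fell by 2.55, SLC25A28, a mitochondrial iron importer, fell by 1.46, and FDX1, a ferredoxin, rose by 1.19 on the log2 scale. The remaining call was PPOX. Palbociclib gave 0 calls, beside 10.7% of all tested genes, and indisulam 1 lower (FDXR), beside 6.69%. The combination gave 1 lower against palbociclib, beside 7.38%, and 0 calls against indisulam, beside 8.19%. Mitochondrially encoded genes held 5.93%, 7.33%, 4.90% and 6.55% of gene reads in the 4 libraries.

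ABCB9, a lysosomal peptide transporter, was at 15.1, 10.6, 6.64 and 6.96 CPM in the untreated, palbociclib, indisulam and combination libraries and was low in both libraries with indisulam. It was called lower with indisulam, at -1.18 [-1.52, -0.84], and with the combination, at -1.11 [-1.46, -0.76]. On the opposite strand, 24.6% of its exon sequence is covered by ARL6IP4, OGFOD2 and a readthrough gene, for which 7 to 12, 25 to 37 and 0 to 2 reads were listed. Whether strand was used in counting was not stated, so reads in the overlap are uncertain. ABCD4, which acts in lysosomal export of vitamin B12, stayed between 33.9 and 37.3 CPM. It shares 6.99% of its exon sequence with a gene on the same strand that had 15 to 28 reads. TAP1 and TAP2, the relatives of ABCB9 that load antigen peptides in the endoplasmic reticulum, carry no ABC symbol and were not members. TAP2 was at 17.5, 31.8, 26.6 and 49.2 CPM, called higher with the combination at 1.48, while TAP1 was at 149, 135, 127 and 99.7 CPM and not called. CFTR, the ABCC subfamily chloride channel, had 0 reads.

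ABCC9 (SUR2, ENSG00000069431, chr12:21797389-21942543) does not transport but regulates ATP-sensitive potassium (KATP) channels. It had 60, 22, 88 and 356 reads in the untreated, palbociclib, indisulam and combination libraries, or 4.78, 1.73, 5.27 and 24.8 CPM. The palbociclib library was the lowest and the combination library the highest. Palbociclib gave a log2 ratio of -1.43 [-2.12, -0.73] in the absence of indisulam and 2.22 [1.89, 2.55] in its presence, both called and of opposite sign. The ratio of indisulam to untreated was 0.14 [-0.33, 0.61], and that of the combination to untreated was 2.36 [1.97, 2.75]. KCNJ8, the channel pore that pairs with ABCC9, was at 2.63, 1.58, 1.85 and 3.27 CPM, from 33, 20, 31 and 47 reads. Its lowest and highest libraries were those of ABCC9, but neither ratio to untreated cells was called. These were -0.71 [-1.50, 0.07] for palbociclib and 0.31 [-0.33, 0.94] for the combination. Only the combination against palbociclib was called, higher at 1.02 [0.28, 1.76]. The other sulfonylurea receptor gene, ABCC8, had 0 to 4 reads, and the other pore, KCNJ11, had 12, 5, 5 and 1.

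ABCC6, a liver transporter that releases ATP and is mutated in pseudoxanthoma elasticum, had 31, 56, 14 and 5 reads. Both libraries with indisulam were low, and the log2 ratio was -1.48 [-2.36, -0.60] with indisulam and -2.60 [-3.86, -1.34] with the combination. ABCC6 has near-identical pseudogenes, ABCC6P1 with 6, 12, 4 and 0 reads and ABCC6P2 with 2, 1, 0 and 0. Reads that aligned to more than 1 place were not counted, so its level is uncertain. ABCC12 had 2 reads in the untreated library and 0 elsewhere.

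The cytosolic members gave 0 calls among 4, beside 33.9% of all tested genes called in any of the 5 comparisons. Their log2 ratios to untreated cells lay between 0.09 and 0.70 in the treated libraries when scaled to gene totals. ABCE1, which splits ribosomes after termination (ENSG00000164163, chr4:145098288-145129524), was at 105, 117, 144 and 141 CPM in the untreated, palbociclib, indisulam and combination libraries, and its largest log2 ratio was 0.46 [0.36, 0.55], with indisulam. ABCF1, which binds initiation factor eIF2, was at 66.5, 78.6, 89.8 and 108 CPM, with 0.70 [0.58, 0.82] for the combination. ABCF2 was at 65.5 to 95.7 CPM and ABCF3 at 47.1 to 56.6 CPM. ABCF2 shares 37.1% of its exon sequence with a same-strand readthrough gene that had no row in the tables. On the opposite strand, 6.52% of ABCE1 exon sequence is covered by ANAPC10 and OTUD4. OTUD4 had 603, 704, 1255 and 1028 reads, and reads in the overlap are uncertain because the strand setting was not stated. The 16 partners in ribosome recycling and control of translation were all tested. None was called in any of the 5 comparisons, beside 33.9% of all tested genes.

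Each drug could be read in 2 ratios that share no library. For palbociclib, 0 of 35 members were called the same way without and with indisulam, where 1.99% of tested genes were higher in both and 1.25% lower in both. ABCC9 was called in opposite ways, as were 0.196% of tested genes. For indisulam, ABCB1 was higher in both ratios, beside 4.86% of tested genes, and ABCC2, ABCC3, ABCA7 and ABCC6 were lower in both, beside 3.66%. ABCB1 passed the limit for testing only through the combination library, so its pair of calls is no support for a direction. Its call with indisulam alone rested on 13 reads against 2 and was lost with TMM. No member was called in opposite ways for indisulam (0.182% of tested genes). The 4 members lower in both made up 11.4% of the 35. All 4 members called with palbociclib alone (ABCC4, ABCA8, ABCA9 and ABCC9) lacked a call of the same direction in the presence of indisulam. Of all tested genes, 10.7% were called with palbociclib alone, and 1.99% were higher and 1.25% lower in both ratios. Most genes called with palbociclib alone thus lacked a second call too, and the members did not stand out in this.

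**Figure D4:**
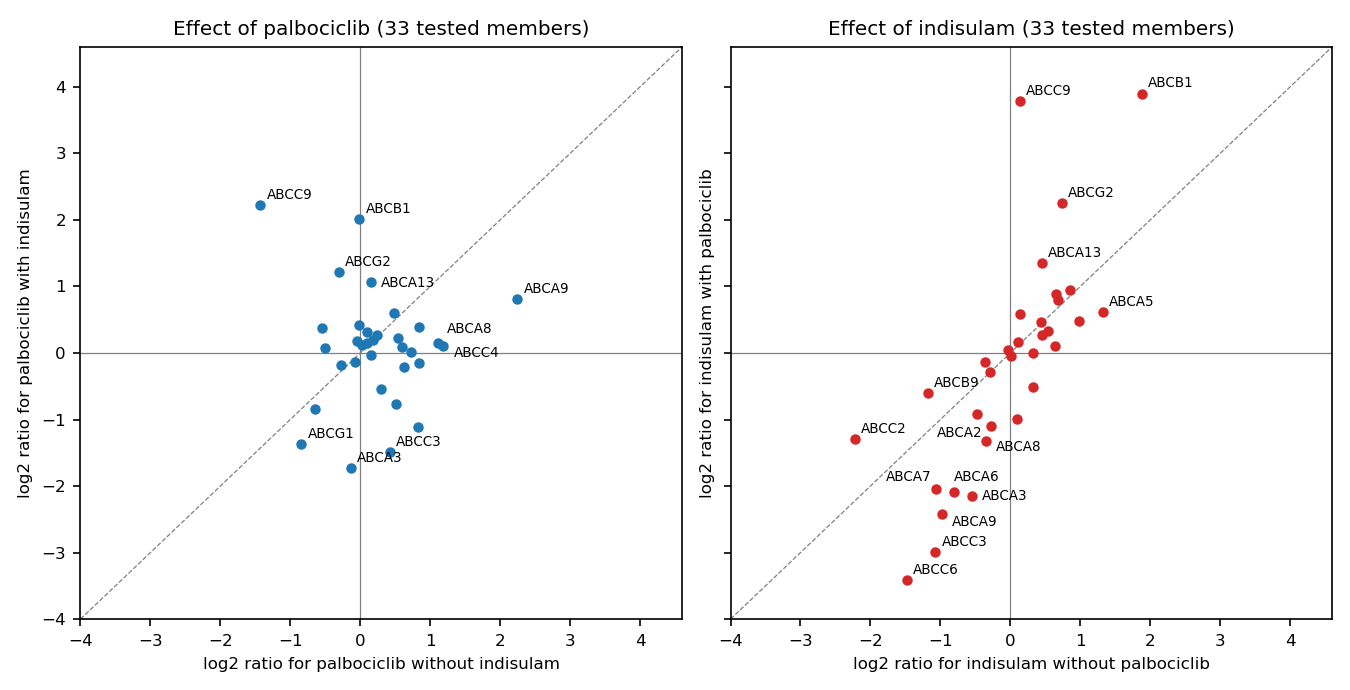
Log2 ratio of each of 33 of the 35 tested members for palbociclib (left) and indisulam (right), without the other drug on the horizontal axis and with it on the vertical axis; the dashed line marks equal values and members called in either ratio are named. In the left panel ABCC9 lies at -1.43 and 2.22, and in the right panel ABCC2, ABCC3, ABCA7 and ABCC6 lie below -1 on both axes.

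The departure of the combination from the sum of the single-drug log2 ratios was called above the sum for 2 members and below it for 6, beside 3.93% and 3.84% of all tested genes (7.77% in either direction). ABCC9, at 3.65 [2.88, 4.42], and ABCG2, at 1.51 [0.90, 2.13], were above. Below were ABCC3, at -1.92 [-2.02, -1.82], ABCC6, at -1.94 [-3.43, -0.44], ABCA3, at -1.60 [-2.13, -1.06], ABCA9, at -1.44 [-1.95, -0.92], ABCA6, at -1.29 [-1.51, -1.06], and ABCC4, at -1.09 [-1.29, -0.88]. For ABCA9 and ABCC4 this meant that the rise with palbociclib was smaller or missing in the presence of indisulam, while ABCC3 and ABCA3 were lower in the combination than in either single drug. ABCB1 had a departure of 2.02 that was not called, since its interval of -0.48 to 4.52 included 0. The SD of this measure over genes of like level was 0.88 for 1 to 5 CPM, 0.52 for 5 to 20 CPM, 0.37 for 20 to 100 CPM and 0.40 above that.

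**Figure D5:**
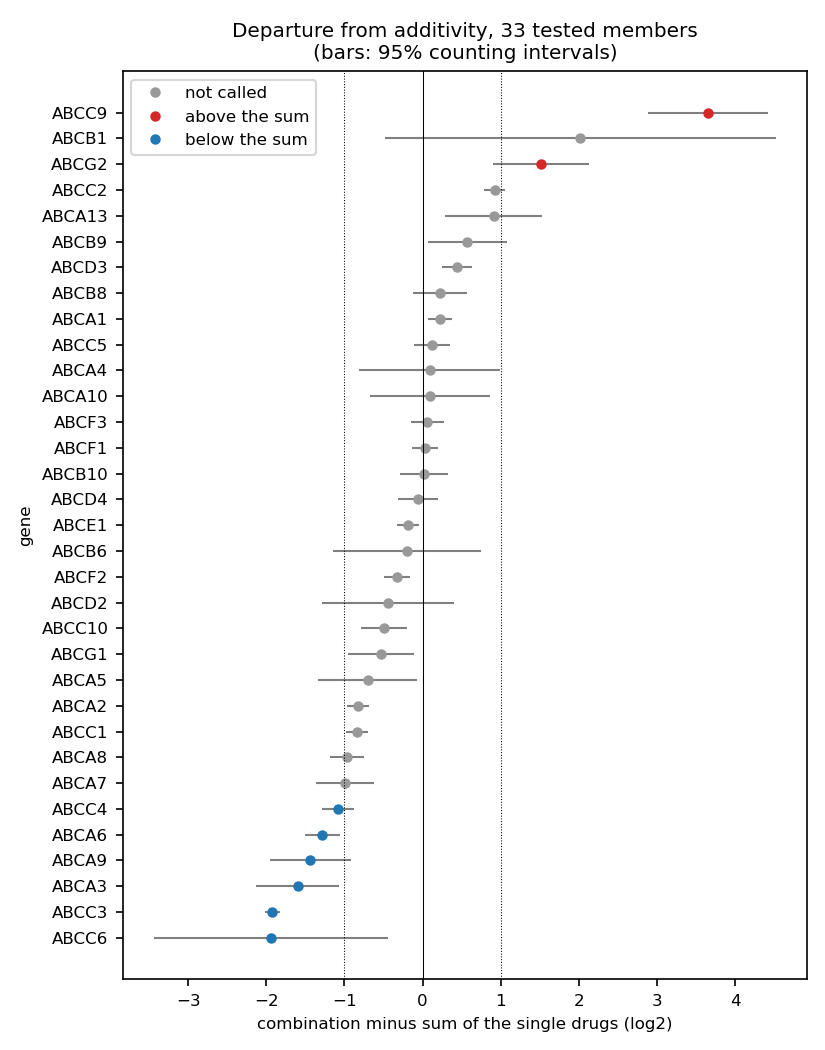
Departure of the combination from the sum of the single-drug log2 ratios for 33 of the 35 tested members, in log2 units, with bars for 95% counting intervals and dotted lines at the 2-fold limits. ABCC9 (3.65) and ABCG2 (1.51) are called above the sum in red, and 6 members from ABCC6 (-1.94) to ABCC4 (-1.09) are called below it in blue.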

How the data were processed

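RNA of SUM159 cells was sequenced in 4 libraries, 1 for each condition. Libraries of mRNA were made with a kit that marks the strand. The submitters' processing notes name TopHat2 2.1, HTSeq and GRCh38, and the strand setting and annotation release were not stated in the sources used here. The deposited values are raw counts of reads per Ensembl gene, with reads in no gene, in more than 1 gene (2.41 to 2.63% of all tallied reads) or at more than 1 place (6.46 to 6.84%) tallied apart and left out here.

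Symbols, positions and exon lengths are from GENCODE release 44 on GRCh38, which matched 56104 of the gene identifiers. Counts were scaled to the mean gene total, a pseudocount of 1 was added, and genes of at least 1 CPM on average were tested. Intervals are Poisson by the delta method for ratios, exact Poisson for levels and Wilson for shares. They and the floor of 3 reads cover counting error only, since reads are not independent molecules. The gene totals of 12555908 to 16712174 set this precision. Alternatives were 4 other scalings (edgeR 4.0.16 TMM and upper quartile, DESeq2 1.42.0 size factors, totals without mitochondrially encoded genes), pseudocounts of 0.5 and 5, no filter or 5 CPM, 1.5-fold, and 2-fold without the interval. Python 3.11.15 and R 4.3.3 were used.

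Named in full are members called in any comparison, 10 members chosen by role, and up to 3 called genes of each partner list with the largest ratio of combination to untreated, beside others named after their values were seen. The members and lists were chosen with earlier results of these data known. No protein sequences were used here. The values of 2 tested members, and of 1 partner gene that the rule would have named, are not reported here.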

Additional observations from a re-analysis of the deposited data

Results flagged for a closer look

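ABCC9 had opposite ratios for palbociclib in the absence and presence of indisulam, with log2 values of -1.43 and 2.22. The difference between them is the departure of 3.65 [2.88, 4.42] given above. Its interval covers counting error only, and no p-value was computed, since each condition had 1 library.

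Among 18 further ABC symbols in the tables that are pseudogenes or antisense genes, and so were not members, 5 had reads. ABCA11P had 13 reads in the palbociclib library beside 2 in the untreated library. ABCA15P had 13 reads with indisulam and 15 with the combination, and 0 reads in both the untreated and the palbociclib library. For ABCA17P, whose span on chromosome 16 (2339150 to 2426699 on GRCh38, plus strand) holds the ABCA3 promoter printed above, the counts were 0, 0, 3 and 2 in the untreated, palbociclib, indisulam and combination libraries.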

How the results depend on the processing

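No paired analysis was possible because each condition had 1 library, and for the same reason no replicate could be left out. Over the 6 alternatives of scaling or pseudocount, 0 of 780 log2 ratios of named members reversed and 771 stayed within their intervals. Over all 10 alternatives, 202 of 220 counts and medians stayed close to the reported value. Another scaling moved a named ratio by at most 0.098. The members called higher with indisulam went from 2 to 1 with TMM, with upper-quartile scaling, with a pseudocount of 5 and with a limit of 5 CPM. At that limit ABCB1 was not tested, and the members called the same way with indisulam without and with palbociclib went from 5 to 3, beside 5.92% of all genes tested there. At 1.5-fold, 12 members were called with palbociclib (10 higher, 2 lower), beside 12.6% higher and 12.2% lower of all tested genes, and 16 with indisulam (8 higher, 8 lower), beside 17.2% and 14.2%. The combination then gave 20 members against untreated cells (10 higher, 10 lower), beside 23.1% and 19.4%, 21 against palbociclib (8 higher, 13 lower), beside 18.4% and 14.5%, and 11 against indisulam (6 higher, 5 lower), beside 12.0% and 10.2%. The departure at 1.5-fold was called for 15 members, beside 18.8% of tested genes. The members called the same way at 1.5-fold were 2 for palbociclib and 13 for indisulam, beside 9.68% and 18.6%. These last counts of both kinds, and the departure at other filters and thresholds, were alternatives chosen after seeing the data. Near the 2-fold limit, ABCA9 was gained as lower with indisulam (-1.05 with TMM), and ABCD2 (-1.02) and ABCC4 (-1.09) were gained as lower for the combination against palbociclib with TMM, ABCC4 also with the other 3 scalings. Depth limits ABCB1, ABCC6 and the 10 members not tested, and variation between cultures was not measured.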
